A study of Sus scrofa with 31 samples.

Results

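The genes described here are the SR protein genes (symbols SRSF and a number), the hnRNP genes (symbols starting HNRNP), the CLK kinase genes and PPIG, taken by symbol from the 2 deposited expression tables of pig (Sus scrofa) myocardium. The rule found 29 of the 21313 genes in the table of the storage experiment, 11 SRSF, 13 HNRNP, 4 CLK and PPIG. It found 19 of 25149 genes in the table of hearts that were rewarmed, 6 SRSF, 9 HNRNP and 4 CLK, and PPIG was not among the genes named there. Altogether 30 genes were named in either table and 18 in both. The rule uses names alone, but the families were picked with earlier results of these data known.

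In the first experiment (arm 1) hearts of 6 pigs were stored under the condition labelled SCS (pigs 1, 3 and 5) or HOPE (pigs 2, 4 and 6), and each heart gave a biopsy at 0, 12, 24 and 48 h of storage, so each group held 3 libraries. In the second (arm 2) hearts were perfused at normal temperature for 2 h (normothermic machine perfusion, NMP) after 3, 24 or 48 h of HOPE, giving 2 libraries per storage time, or after 24 h of SCS, giving 1 library. The labels leave SCS and HOPE unexplained; in work on donor hearts SCS commonly stands for static cold storage and HOPE for hypothermic oxygenated perfusion. The labels name cardiomyocytes, but myocardial biopsies were sequenced, and in arm 1 all 9 cardiomyocyte, all 9 endothelial, all 7 fibroblast and all 8 T and natural killer cell markers were present. In such bulk tissue, fewer cells of a type and less RNA per cell cannot be told apart.

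SR proteins bind exonic enhancer sequences in pre-mRNA and, through domains rich in arginine and serine, help to recruit the spliceosome. The CLK kinases phosphorylate those domains in the nucleus, and their activity is known to depend on temperature. The hnRNPs coat nascent transcripts and often act against SR proteins at the same exons, while PPIG is a nuclear cyclophilin, a peptidyl-prolyl isomerase, that carries an SR-like domain and associates with the splicing machinery. Many of these genes also control their own messages through alternative exons, which gene-level values do not show.

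Arm 1 values are normalised counts, that is, reads per gene divided by the authors' size factor for the library, from 19722065 to 35099406 reads per library; they compare libraries, not genes of different length. Changes are log2 fold changes of the value + 1 with their standard error (SE), tested with limma over all 14141 genes with a mean of at least 10, and a gene was called at a Benjamini-Hochberg adjusted p under 0.05. The 13 mitochondrially encoded genes took 29.0% to 39.5% of the signal in HOPE libraries and 33.1% to 82.4% in SCS libraries. The highest share, 82.4%, was that of pig 5 at 48 h of SCS. All members were therefore also read after division by the total over nuclear genes (nuclear-total rescaling).

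PPIG lies on chromosome 15 at 75940397 to 75979168 of Sscrofa11.1 (RefSeq) and was the member with the largest change during SCS. In pig 1 it had a normalised count of 554 at 0 h, of 549 at 12 h, of 599 at 24 h and finally of 792 at 48 h. In pig 3 the values were 520.5, 819, 889 and 1257, and in pig 5 they were 519, 539, 997 and 2023. PPIG was thus higher at 48 h than at 0 h in all 3 SCS hearts, by 0.51, 1.27 and 1.96 log2 units, and its change was the highest of the 29 members in each of them. The 3 SCS libraries of 48 h did not overlap those of 0 h. How often groups do not overlap was not counted over all genes, here or for any gene described below.

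In HOPE hearts PPIG ranged from 481 to 709.9 over all times. Pig 2 had 709.9 before storage, then 692, 696 and 687 in the same order of times. Pig 4 had 700.0, 642, 667 and 612.5, and pig 6 had 579.7, 560.3, 637 and 481. All 3 HOPE hearts were slightly lower at 48 h than at 0 h, by 0.05 to 0.27 log2 units, and at 48 h the highest HOPE value, 687, lay below the lowest SCS value, 792. Before storage the order was the reverse, also without overlap. At 0 h the lowest HOPE value, 579.7, lay above all SCS values, a difference that was not called.

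**Figure D1:**
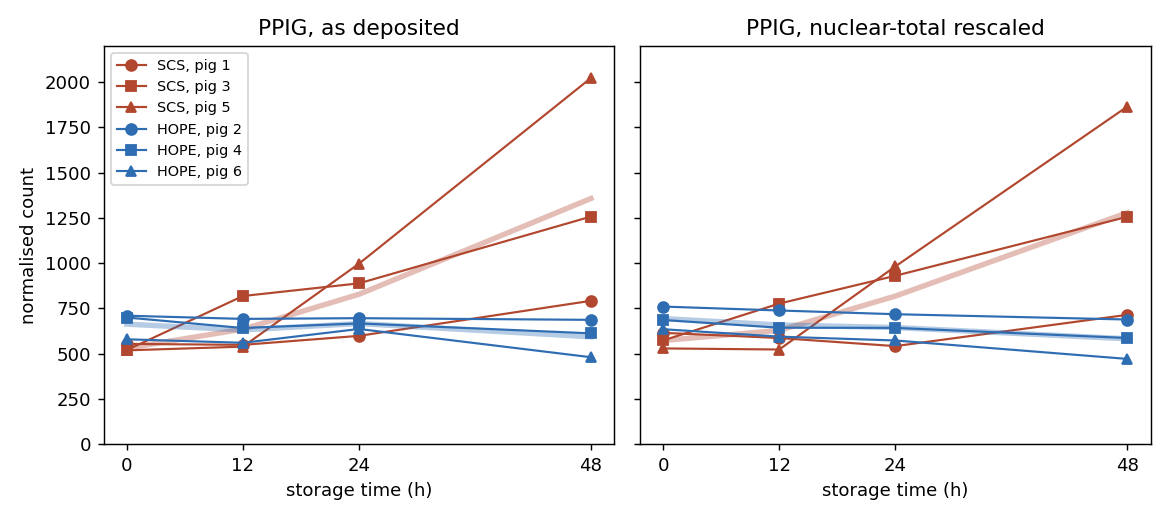
PPIG in each arm 1 library against storage time (h), as the deposited normalised count (left) and after nuclear-total rescaling (right), with 1 line for each pig, SCS in red and HOPE in blue. The 3 SCS lines end between 792 and 2023 at 48 h on the deposited scale, above the 3 HOPE lines at 481 to 687.

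From a mean of 531 ± 20.1 (SD, n = 3) at 0 h, PPIG in SCS hearts reached 828 ± 206 at 24 h and 1358 ± 621 at 48 h. In the fit without the pig, this was 1.25 ± 0.26 log2 units at 48 h with a limma adjusted p of 0.3635, and no member and 0.0% of all genes were called; 1 of the 29 members, PPIG, and 8.08% of genes had an unadjusted p under 0.05. The 4 biopsies of a heart share their pig, and with the pig as a block PPIG rose by 1.25 ± 0.20 log2 units (limma adjusted p = 0.01305). It was the only 1 of the 29 members called, against 2.18% of all genes. DESeq2 on the recovered reads called it too (1.35, adjusted p = 0.003733), and edgeR did not (1.37, adjusted p = 0.362). Of 14141 genes DESeq2 called 22 there and edgeR 0. Nuclear-total rescaling gave 1.05 log2 units with a limma adjusted p of 0.2188, or 0.02397 with the block, where PPIG was again the only member called and 5.95% of genes were. At 24 h PPIG was at 0.61 log2 units, not past the threshold (limma adjusted p = 0.9993, or 0.2936 with the block).

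At 48 h PPIG was lower in HOPE than in SCS hearts by 1.10 ± 0.26 log2 units (limma adjusted p = 0.02475), the only 1 of 29 members called, against 6.25% of all genes. With the block its adjusted p was 0.01533 and 11.5% of genes were called. After nuclear-total rescaling the difference was -1.04 (limma adjusted p = 0.02941, 7.78% of genes called). The difference between the changes of the 2 conditions from 0 to 48 h was -1.42 ± 0.37 log2 units and did not pass the threshold (limma adjusted p = 0.988, 0.0% of genes called, and with the block 0.06725, 0.127% of genes called). It includes the higher level of PPIG in HOPE hearts at 0 h.

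Both PPIG calls rested on few hearts. Without the 48 h library of pig 5 the change in SCS was 0.92 with the block (limma adjusted p = 0.07675) and the HOPE difference was -0.77 with the block (0.05676), neither past the threshold. The order of the 3 SCS hearts at 48 h was also the order of their mitochondrial share, 48.0% in pig 1, 59.98% in pig 3 and 82.4% in pig 5. The T and natural killer cell markers differed at 48 h as well, with a summed level of 743 to 1211 in SCS and 251 to 385 in HOPE libraries. The part of either in the PPIG result was not tested.

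Averaged over the hearts of a group, most of the other 28 members moved little during storage. The mean change in SCS hearts at 48 h was within 0.5 log2 units for 27 of the 29 members (93.1%), against 79.17% of all genes. The exceptions were PPIG and SRSF12. Some single hearts went further at 48 h. The shares beyond 0.5 log2 units were 3.448%, 24.14% and 27.59% of members in SCS pigs 1, 3 and 5, against 45.0%, 26.36% and 41.26% of genes. In HOPE pigs 2, 4 and 6 they were 3.448%, 6.897% and 24.14% of members, against 14.04%, 21.74% and 33.99% of genes. SRSF12, the tissue-restricted SR protein that can oppose other members of its family, was near the detection floor at 0 to 32.2 normalised counts in the 24 libraries, and its -1.09 ± 1.05 log2 units at 48 h carries that error. The median change of the members in SCS was -0.12, -0.11 and 0.01 at 12, 24 and 48 h, and that of all genes was -0.01, -0.01 and -0.03. In HOPE hearts the members' medians were 0.00, 0.02 and 0.02 and those of all genes 0.01, 0.02 and 0.01. By limma no member and 0.0% of genes were called at 12 or 24 h of SCS or at 12, 24 or 48 h of HOPE. At an unadjusted p under 0.05 there were 0 and 1 members at 12 and 24 h of SCS and 0 at each HOPE time, and edgeR and DESeq2 also called 0 in those 5 comparisons.

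**Figure D2:**
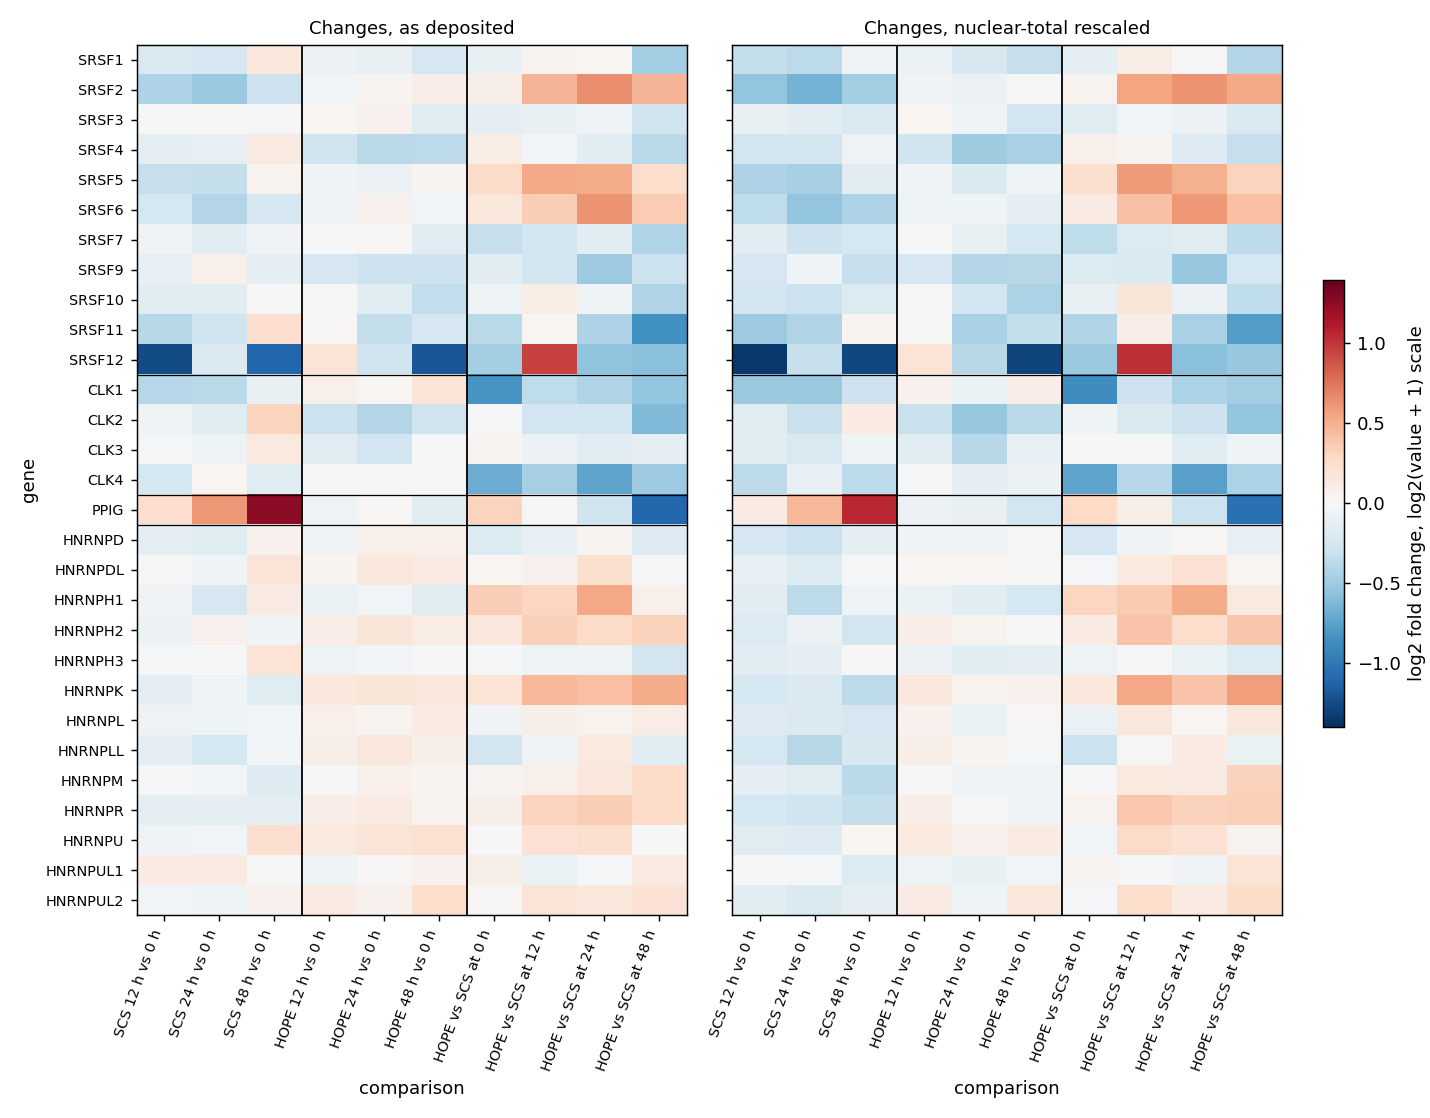
Log2 fold changes (colour scale, log2 of the value + 1) of the 29 members (rows) in the arm 1 comparisons (columns), on the deposited scale (left) and after nuclear-total rescaling (right). PPIG has the strongest colours at 48 h of SCS (1.25) and for HOPE against SCS at 48 h (-1.10); the dark cells of SRSF12 belong to a gene near the detection floor.

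The CLK kinases were spread widely between hearts before storage. CLK1, whose own transcript is known to retain introns that are spliced on demand, had 1248, 759.6 and 795.9 normalised counts in the SCS hearts of pigs 1, 3 and 5 at 0 h and 1128, 527 and 1032 at 48 h. In the HOPE hearts of pigs 2, 4 and 6 it had 484, 245 and 1137 at 0 h and 549, 458.5 and 788 at 48 h. SCS and HOPE overlapped at both times, and over the 24 libraries the highest CLK1 value was 5.09 times the lowest.

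CLK4, the closest relative of CLK1, had 420.1, 322 and 337 in SCS and 181, 138 and 427 in HOPE at 0 h. At 24 h the SCS libraries had 343, 376 and 371 and the HOPE libraries 205, 194 and 259, with no overlap. The HOPE difference was -0.70 ± 0.31 at 0 h (limma adjusted p = 0.665, 0.0% of genes called) and -0.74 ± 0.31 at 24 h (limma adjusted p = 0.139, 2.04% of genes called), so a gap of the same size was there before storage began. CLK1 differed by -0.83 ± 0.41 at 0 h and by -0.42 ± 0.41 at 24 h, also not past the threshold.

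**Figure D3:**
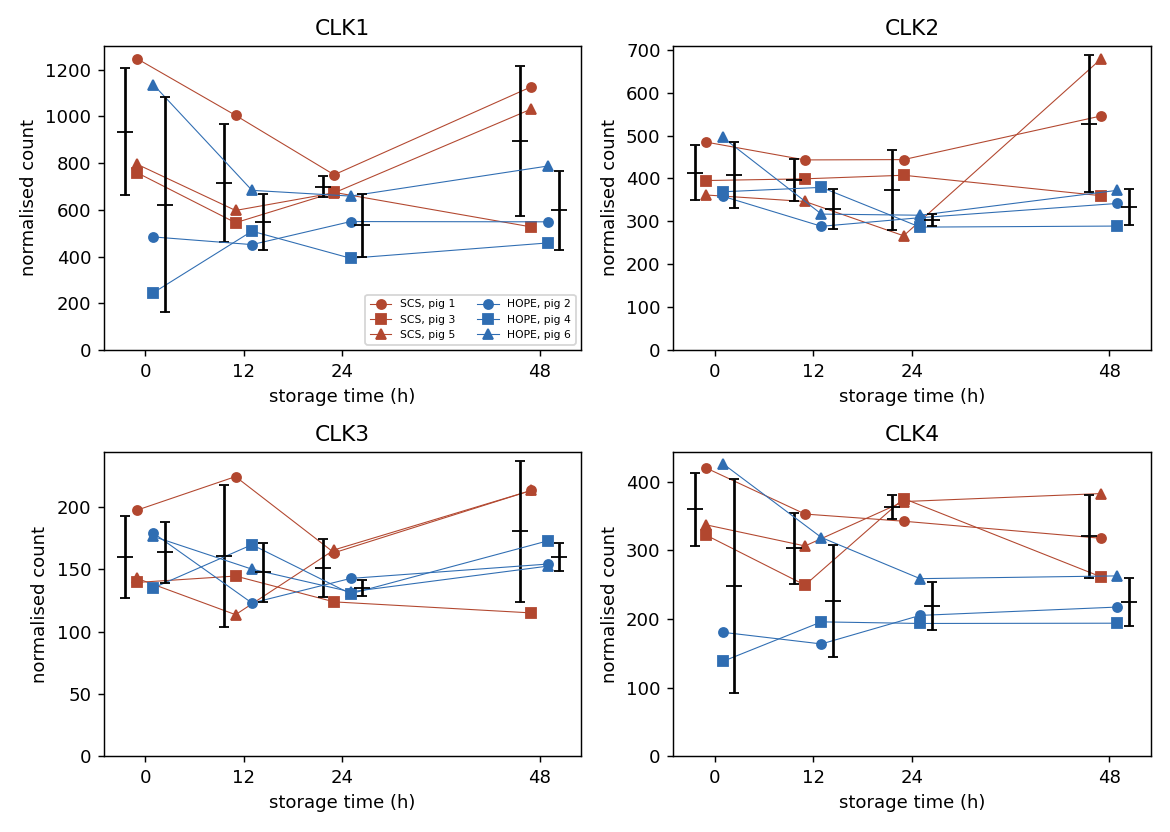
Normalised counts of CLK1, CLK2, CLK3 and CLK4 in each arm 1 library against storage time (h), with 1 line for each pig, SCS in red and HOPE in blue, and each vertical axis starting at 0. Pig 6, a HOPE heart, starts at 1137 for CLK1 and 427 for CLK4, beside the SCS hearts and above the other HOPE hearts.

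Pig 6 set the width of the HOPE group at 0 h. Its CLK1 and CLK4 values were near those of the SCS hearts, and so were its summed endothelial markers (50612 against 16338 and 23314 in pigs 4 and 2, and 42363 to 52468 in SCS) and its T and natural killer cell markers (1215 against 516 and 553). Without pig 6, CLK1 (-1.399, limma adjusted p = 0.04707) and CLK4 (-1.17, 0.01277) were lower in HOPE at 0 h, 2 of 29 members against 2.38% of genes. CLK4 was then also lower at 12 h (-0.74, adjusted p = 0.03455), 24 h (-0.86, 0.01243) and 48 h (-0.62, 0.04035), in fits that called 2, 5 and 4 members and 10.1%, 17.0% and 22.3% of all genes. Pig 6 had the highest CLK1 and CLK4 values of the HOPE hearts at 0 h, so leaving it out widened both gaps by construction. The calls without it are therefore not separate support for a difference. At 0 h no member was called when any other single pig was left out. The part of cell composition in these values was not tested.

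CLK2 had 545.5, 359.8 and 678 in SCS and 342, 289 and 372 in HOPE hearts at 48 h, with overlap between the lowest SCS and the highest HOPE library. Its difference of -0.62 ± 0.23 log2 units missed the threshold in limma (adjusted p = 0.0885) and passed it in DESeq2 (-0.65, adjusted p = 0.0426). DESeq2 called 1931 of 14141 genes there. CLK3, the least abundant of the 4 in reads, stayed between 114 and 225 in all 24 libraries, with differences of -0.15 to 0.04 between HOPE and SCS at the 4 times. All 4 CLK genes had a negative HOPE difference at 12, 24 and 48 h, and none was called in the fit of all hearts.

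Among the SR proteins, SRSF11 came nearest to PPIG at 48 h. SRSF11, an SR-related factor that binds the splice site factor U2AF, had 1009, 1171 and 2272 normalised counts in the SCS hearts of pigs 1, 3 and 5 and 763, 740.0 and 816 in the HOPE hearts of pigs 2, 4 and 6. The groups did not overlap, and the difference was -0.85 ± 0.26 log2 units, just outside the threshold (limma adjusted p = 0.0525, with edgeR 0.0458 and DESeq2 0.0133). Of 14141 genes, edgeR called 841 in this comparison and DESeq2 1931. From 0 to 48 h SRSF11 changed by -0.26, -0.10 and 1.05 log2 units in SCS pigs 1, 3 and 5. In HOPE pigs 2, 4 and 6 it changed by -0.004, 0.12 and -0.82. For HOPE against SCS at 0 h, it was already among the 2 SRSF genes nearest to the threshold, without being called. SRSF1, the founding SR protein and a regulator of many alternative exons, differed by -0.48 ± 0.18 at 48 h (limma adjusted p = 0.0968), from 1417 ± 247 (SD, n = 3) in SCS to 1019 ± 176 in HOPE.

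SRSF2, SRSF5 and SRSF6 showed the opposite sign. SRSF6, an SR protein that acts on constitutive and alternative exons, had 891, 1121 and 1265 in SCS and 1488, 2230.2 and 1402 in HOPE hearts at 24 h, without overlap. Its difference was 0.63 ± 0.25 log2 units (limma adjusted p = 0.122). SRSF2, which is needed for normal heart muscle in mice, had 266, 206 and 229 in SCS and 379, 499 and 256 in HOPE at 24 h, a difference of 0.65 ± 0.26 (adjusted p = 0.129) with overlap between groups. Within SCS it was at -0.52 ± 0.26 log2 units at 24 h (adjusted p = 0.9993), the lowest of the members at that time. SRSF5 differed by 0.53 ± 0.24 at 12 h (limma adjusted p = 0.286).

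Within HOPE the SR proteins nearest to the threshold were SRSF4, at -0.37 ± 0.18 log2 units at 24 h and -0.36 ± 0.18 at 48 h, and SRSF10, a splicing repressor activated by loss of phosphate during heat shock, at -0.35 ± 0.19 at 48 h (limma adjusted p = 0.9994 and 1.0 for SRSF4, 1.0 for SRSF10). Pig 6 had the largest fall each time. In pigs 2, 4 and 6 SRSF4 changed by -0.03, -0.13 and -0.97 at 24 h and by 0.03, -0.26 and -0.86 at 48 h. SRSF10 changed by -0.31, 0.10 and -0.83 at 48 h. Of the 11 SRSF genes, 8 had a negative and 3 a positive HOPE difference at 48 h, with a median of -0.38.

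The hnRNPs showed small changes. HNRNPL, which binds CA-rich elements, ranged from 2490 to 3349 normalised counts over the 24 libraries with a coefficient of variation of 7.03%, the lowest of the members, while PPIG had 43.9%, CLK1 37.0% and SRSF11 34.1%. On the deposited scale the mean changes of the 13 hnRNP genes lay within 0.25 log2 units at every time in both conditions, from HNRNPLL at -0.25 ± 0.18 at 24 h of SCS to HNRNPUL2 at 0.24 ± 0.14 at 48 h of HOPE. Single hearts went further, to -0.79 for HNRNPLL in pig 1 at 24 h and 0.68 for HNRNPH1 in pig 5 at 48 h of SCS. After nuclear-total rescaling the lowest means in SCS were -0.39 for HNRNPLL at 24 h and -0.37 for HNRNPM at 48 h, when the median of all genes stood at -0.15 and -0.22. HNRNPU, a nuclear scaffold protein required for cardiac splicing in mice, was at 0.23 ± 0.15 at 48 h of SCS and 0.21 ± 0.15 at 48 h of HOPE.

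Between conditions, HNRNPK and HNRNPH1 were nearest to the threshold. HNRNPK, which binds C-rich sequences, had 3929.5, 2882 and 2324 normalised counts in SCS and 4832, 4540.3 and 3573 in HOPE hearts at 48 h, with pig 1 above pig 6, and differed by 0.52 ± 0.21 (limma adjusted p = 0.113). HNRNPH1, which binds G-rich sequences, had 912, 1172 and 1422 in SCS and 1715, 1806 and 1502.5 in HOPE hearts at 24 h, without overlap. Its difference was 0.54 ± 0.21 (limma adjusted p = 0.118), and at 0 h it already stood at 0.34 ± 0.21.

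Over all members, the median HOPE difference was 0.00, 0.03, 0.02 and -0.15 in order of storage time, and that of all genes was -0.02, 0.00, 0.01 and 0.02. At an unadjusted p under 0.05 there were 6 of 29 members at 24 h and 7 of 29 at 48 h, against 26.8% and 27.8% of genes. By limma 0 members were called at 0, 12 and 24 h (edgeR and DESeq2 also 0), where 0.0%, 0.0141% and 2.04% of genes were. In the comparison of the changes from 0 h, HOPE minus SCS, 0 members and 0.0% of genes were called at 12 and 24 h, and no member had an unadjusted p under 0.05 there.

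Rescaling to the nuclear total multiplies all genes of a library by the same factor, so members and other genes shift together by construction. In SCS the members' median change became -0.23, -0.25 and -0.19 at the 3 times, and that of all genes became -0.12, -0.15 and -0.22. In HOPE at 24 and 48 h it became -0.10 and -0.08, the same as that of all genes. At 48 h of SCS 25 of 29 members were then below their 0 h level, with PPIG among the 4 above it, but 0 members were called by limma without the block, and 0.0% of genes. HOPE against SCS at 48 h had a members' median of -0.09 beside 0.08 for all genes.

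Single hearts moved in different directions. At 24 h, 29 of 29 members in pig 1 (SCS) and 28 of 29 in pig 6 (HOPE) were below 0 h on the nuclear scale, with medians of -0.42 and -0.50, while pig 4 (HOPE) had 22 of 29 above 0 h. The medians of all genes in pigs 1 and 6 were -0.30 and -0.28. Summed over the 29 members, the level per 1000000 nuclear counts in SCS hearts was 2923 ± 134 (SD, n = 3) before storage, then 2559 ± 181, 2524 ± 265 and 2683 ± 206. In HOPE hearts the sums were 2869 ± 139, 2882 ± 117, 2717 ± 324 and 2740 ± 238.

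**Figure D4:**
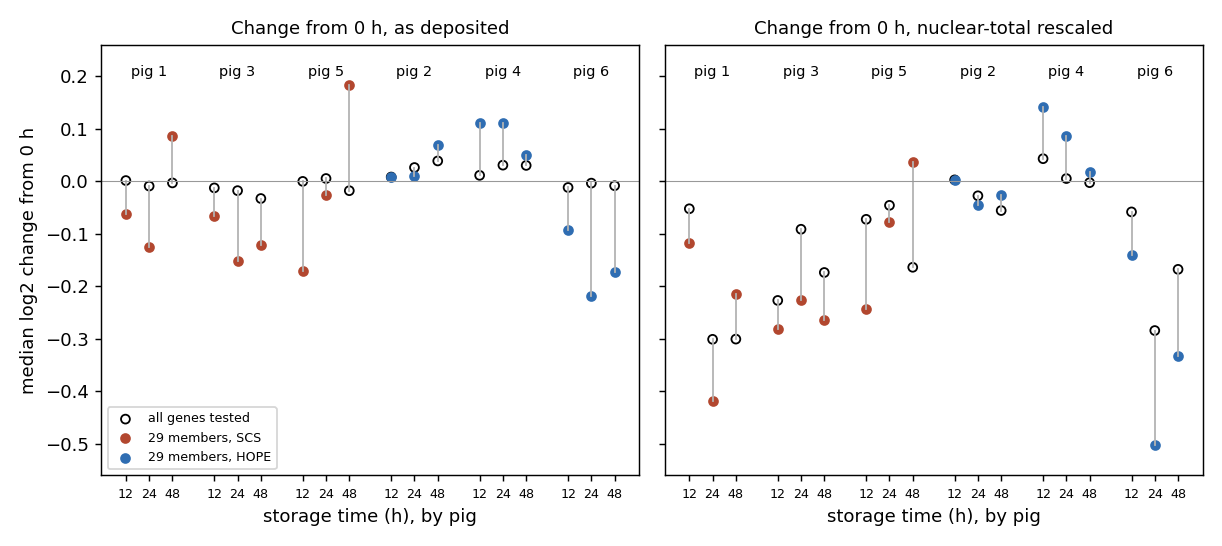
Median log2 change from 0 h of the 29 members (filled, SCS in red and HOPE in blue) and of all 14141 genes tested (open) in each pig at 12, 24 and 48 h, on the deposited scale (left) and after nuclear-total rescaling (right). Between the scales the medians of all genes and of the members shift together by construction. On the nuclear scale those of all genes stand at -0.30 in pig 1 and -0.28 in pig 6 at 24 h.

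Scaling to the total that includes the mitochondrial genes gave another picture, since that total rises with the mitochondrial share. The members' median change at 48 h of SCS was then -0.97 beside -0.99 for all genes, with 18 of 29 members and 39.0% of genes called. For HOPE against SCS at 48 h all 29 members had a positive difference, with a median of 0.96 beside 1.12, 18 of 29 were called, and 57.0% of genes were. PPIG stood at 0.01 there, so its lower level in HOPE holds on the authors' and the nuclear scale and not on this one.

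Other splicing genes were read from lists by role. At 48 h, HOPE against SCS, 4 of 32 tested SR-like and SR-related genes were lower and none higher, with a list median of -0.25, against 6.25% of all genes called in either direction and a median of 0.02. LUC7L3, a U1 snRNP-associated protein, had 603 ± 91.7 (SD, n = 3) normalised counts in HOPE and 2089.7 ± 1082 in SCS hearts, a difference of -1.68 ± 0.29 log2 units (limma adjusted p = 0.009727). PNISR, PNN and SREK1, all proteins with RS-like domains, differed by -1.03, -1.15 and -0.93 (limma adjusted p = 0.0308, 0.0466 and 0.0473). The SCS values of these 4 genes were spread widely, as with PPIG: LUC7L3 ran from 1385 to 3336 and PNISR from 1147 to 3023. After nuclear-total rescaling 2 of the 32 were lower, LUC7L3 and PNISR, against 7.78% of genes called.

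Of 38 core spliceosome genes 3 were higher in HOPE at 48 h and 1 lower, against the same 6.25% of all genes. SNRNP200, the helicase that unwinds U4 from U6, had 2969 ± 324 in HOPE and 1551 ± 177 in SCS hearts, a difference of 0.94 ± 0.16 (limma adjusted p = 0.009727), and was also called at 24 h (0.62, limma adjusted p = 0.0493), where 2.04% of genes were. The 24 h call was lost after nuclear-total rescaling without the block, where no gene of these lists and 1.38% of all genes were called. PRPF8, the scaffold of the catalytic core, and PRPF19, a ubiquitin ligase of the spliceosome, differed by 0.70 and 0.64, and the Sm protein gene SNRPG by -0.90 (limma adjusted p = 0.03995, 0.0295 and 0.03995). The nonsense-mediated decay helicase gene UPF1 (0.67, limma adjusted p = 0.0434; 1 of 9 genes of that list) was higher.

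With the pig as block, where 11.5% of all genes were called, the counts at 48 h were 4 higher and 3 lower of 38 core spliceosome genes, among them SNRPD2 at -0.94 (limma adjusted p = 0.01981), 3 lower SR-like genes without PNN, and 2 higher of 9 decay factors, with SMG5 at 1.21 (0.02992). The cyclophilin gene PPIL3 was then lower (-0.88, adjusted p = 0.04368), 1 of 8. At 24 h the block called 9.87% of all genes. Among them were 3 of 9 muscle splicing regulators, CELF1, RBFOX1 and RBM20, higher in HOPE at 0.74, 0.95 and 1.33 (limma adjusted p = 0.02174, 0.03624 and 0.03799). The other calls were 2 of 38 core spliceosome genes, PRPF8 at 0.64 and SNRNP200 at 0.62 (limma adjusted p = 0.02406 and 0.02824), and 1 of 9 decay factors, SMG5 at 1.197 (0.03619). All 6 were also called with the block after nuclear-total rescaling. The summed cardiomyocyte markers at 24 h were 1540766 ± 123053 (SD, n = 3) in HOPE and 1254009 ± 363012 in SCS hearts, with pigs 3 and 5 of SCS below all 3 HOPE libraries and pig 1 among them. Of the T and natural killer cell markers 4 of 8 were lower in HOPE in the same fit. The part of cell composition in these calls was not tested.

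Without the block, none of the 10 SR protein kinase and related kinase genes, 9 muscle splicing regulators, 8 spliceosomal cyclophilins other than PPIG or 2 cold-inducible RNA-binding protein genes (CIRBP and RBM3) was called by limma at 48 h. Without the 48 h SCS library of pig 5, no gene of any of these lists was called without the block, and 14 genes were called in all (0.099%) in place of 884. With the block the same omission left 708 genes called (5.01%) in place of 1628. Among them were LUC7L3 (-1.32), 2 higher and 3 lower core spliceosome genes, with SNRNP200 at 0.85 and PRPF8 at 0.76, and UPF1 at 0.73 (limma adjusted p = 0.01804, 0.01804, 0.02087 and 0.03818 for the 4 named). Within SCS or HOPE no gene of these lists was called at any time without the block, and with it UPF2, a decay factor, rose at 48 h of SCS (0.52, limma adjusted p = 0.0495), against 2.18% of all genes. With the block after nuclear-total rescaling, which called 5.95% of genes, the list genes called at 48 h of SCS included 2 of 38 core spliceosome genes, PLRG1 and SNRNP200, at -0.59 and -0.47 (limma adjusted p = 0.04639 and 0.04662). They also included 4 of 9 muscle splicing regulators, which fell: MBNL2 by 0.76, CELF1 by 0.50, MBNL1 by 0.49 and QKI by 0.42 log2 units (limma adjusted p = 0.04211, 0.0279, 0.04643 and 0.04999). On this scale all genes had a median of -0.22, the muscle splicing regulators -0.16 and the core spliceosome genes -0.14, so neither list fell more than genes in general. UPF2 was not called there.

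After NMP the values are TPM, already divided by gene length, so levels of genes can be compared within a library. HNRNPH1 stood highest in the 6 HOPE libraries, at a mean of 325 TPM (219.6 to 417), followed by HNRNPD at 237 (213 to 264). SRSF3, the smallest SR protein, at 163, SRSF6 at 158, HNRNPM and HNRNPF at 148 each and HNRNPU at 121 TPM had ranges that overlapped. SRSF11 and SRSF9, at 66.8 TPM each, HNRNPUL1 at 57.6, SRSF1 at 54.1 and CLK1 at 49.1 formed the next step. HNRNPH3 and HNRNPR followed at 37.6 and 33.2. CLK3 at 14.7, CLK2 at 10.8, CLK4 at 10.04 and SRSF4 at 6.99 TPM were lowest, and HNRNPLL was listed at 0 in all 7 libraries. CLK1 was thus the most abundant CLK transcript, and its lowest library, at 34.3 TPM, lay above the highest of CLK3, at 18.8.

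**Figure D5:**
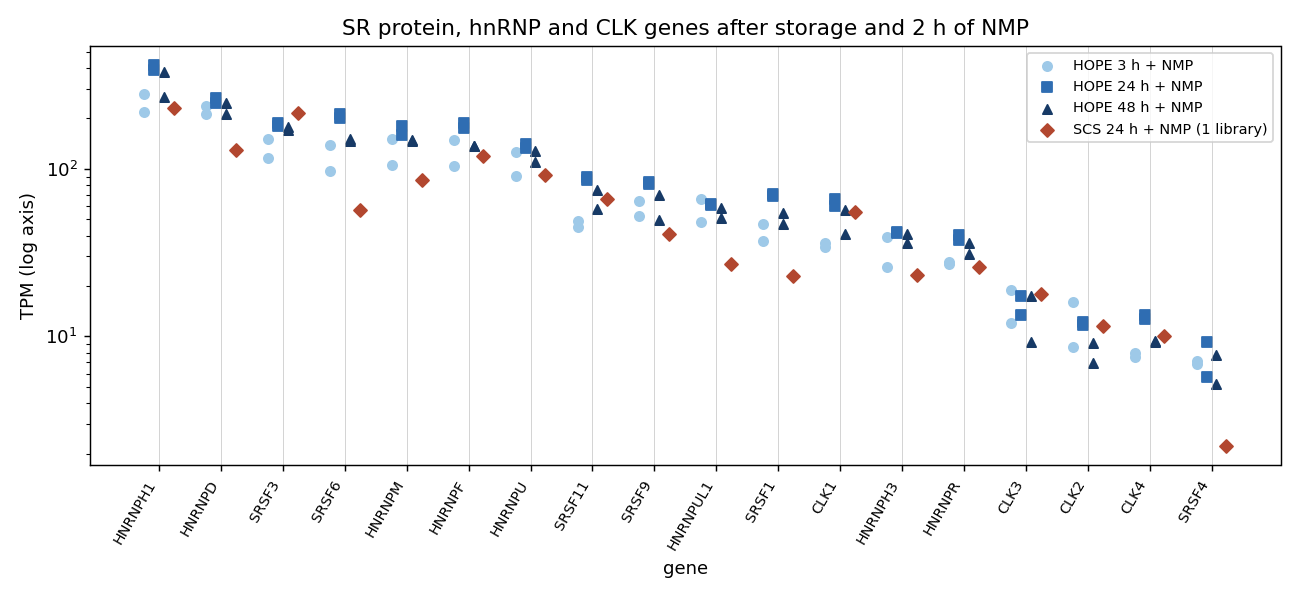
TPM (log axis) of the 18 members tested after NMP, in order of their mean in the HOPE libraries; circles, squares and upward triangles show the HOPE libraries by storage time (3, 24 and 48 h, a pair each), and diamonds the single library after 24 h of SCS. The diamonds of the members called, SRSF6, SRSF1, SRSF4 and HNRNPUL1, lie below all 6 HOPE libraries. So do those of HNRNPD, HNRNPM, SRSF9, HNRNPH3 and HNRNPR, which were not called. The diamonds of the CLK genes lie among the HOPE libraries. The share of all genes with the SCS library lowest was not counted.

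Among the HOPE libraries, those after 24 h of storage had the highest member levels. SRSF11 had 49.1 and 44.7 TPM after 3 h, 85.9 and 89.7 after 24 h, and 74.4 and 57.3 after 48 h. SRSF6 had 139.5 and 97.2, then 213 and 202, then 146 and 150.2. CLK1 had 36.0 and 34.3, then 66.3 and 60.004, then 56.8 and 41.0, so for these 3 genes both 24 h libraries lay above all other HOPE libraries.

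The differences of 24 h from 3 h were 0.89 ± 0.28 for SRSF11, 0.83 ± 0.29 for SRSF6, 0.83 ± 0.28 for CLK1, 0.70 ± 0.29 for HNRNPH1 and 0.68 ± 0.25 for CLK4, none past the threshold (limma adjusted p = 0.299, 0.315, 0.314, 0.361 and 0.326). All 18 members tested were positive, with a median of 0.48 beside 0.26 for the 10986 genes tested, and 6 of 18 members and 13.7% of genes had an unadjusted p under 0.05. After nuclear-total rescaling 16 of 18 were positive, with a median of 0.42 beside 0.22. From 24 to 48 h all 18 were negative, with a median of -0.29 beside -0.21 for all genes, and from 3 to 48 h the medians were 0.22 and 0.03. In these 3 comparisons limma called 0 members and 0.0% of genes, and the last 2 had 0 members with an unadjusted p under 0.05. The 24 h libraries enter both of the first 2 comparisons.

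After 24 h of storage and NMP, 4 of 18 members were lower in the SCS library than in the 2 HOPE libraries, against 26.4% of all genes called, so the share of members is near the background. SRSF6 had 56.9 TPM against 213 and 202 (-1.85 ± 0.35, limma adjusted p = 0.01154). SRSF1 had 22.8 against 68.9 and 70.4 (-1.57 ± 0.34, adjusted p = 0.01659). SRSF4 had 2.21 against 5.70 and 9.29 (-1.37 ± 0.39, 0.04073; with equal library numbers as a block -1.19, 0.05267), and HNRNPUL1, a relative of HNRNPU, had 27.0 against 60.9 and 61.8 (-1.16 ± 0.35, 0.04591).

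SRSF3 had the highest difference, 216 TPM against 187 and 179 (0.24 ± 0.33), and the 4 CLK genes were near their HOPE level. CLK1 had 55.4 TPM against 66.3 and 60.004, CLK4 10.006 against 13.4 and 12.7, CLK2 11.5 against 12.2 and 11.7, and CLK3 17.8 against 13.4 and 17.5. Their differences were -0.18 ± 0.35, -0.35 ± 0.30, -0.06 ± 0.42 and 0.21 ± 0.46, none past the threshold. The members' median was -0.69 beside -0.73 for all genes.

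The scaling decides much of this comparison. After nuclear-total rescaling 2 of 18 members, SRSF6 (-1.54, limma adjusted p = 0.01016) and SRSF1 (-1.27, 0.02303), and 20.7% of genes were called, and the medians were -0.39 and -0.49. Genes without a symbol took 29.2% of the SCS library and 16.5% to 20.4% of the HOPE libraries. When the nuclear total was taken over genes with a symbol alone, no member was called lower, SRSF3 was called higher (1.48, limma adjusted p = 0.03644), 15.9% of genes were called, and the medians were 0.55 for the members and 0.32 for all genes.

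The SCS library also stood apart in its cell markers. The summed cardiomyocyte markers were 2499 TPM there and 38765 to 62202 in the 6 HOPE libraries, with 7 of 7 called lower at a median of -4.48, and the summed fibroblast markers were 2615 against 541 to 1171. The muscle-restricted SR kinase SRPK3 had 1.33 TPM against 54.4 ± 4.08 (SD, n = 2) after 24 h of HOPE, and RBM20, the titin splicing factor, had 0.714 against 21.9 ± 3.61. Of the muscle splicing regulators 5 of 9 were lower, of other RNA-binding regulators of splicing 10 of 23, of the core spliceosome 7 of 30, of the SR-like genes 4 of 23, of the kinases 2 of 11 and of the cyclophilins 1 of 6; none of these lists had a gene called higher. Set against the 26.4% of all genes called, the first 2 counts lie above that share and the other 4 below it. With 1 SCS library, the storage condition, the heart and its cell composition cannot be told apart.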

How the data were processed

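Per the file headers and values, the authors' arm 1 table holds signal values, read counts divided by 1 size factor per library; each library's values were multiples of 1 step (100% of them, tolerance 1e-06), which gave back whole reads. The authors' arm 2 values, deposited as normalized counts, sum to the same total in each column and were read as TPM; depth is unknown there, so count tests were not run, and the spike-in RNA named in the labels was not used. Another 11 columns match no sample and were not used. The submitters' processing notes name the aligners STAR 2.5.2b and HISAT2 2.2.1, Subread 1.5.2, featureCounts 2.0.6, DESeq2 and the build Sscrofa11.1, without saying which served which arm; the use of strand in counting was not given in the sources used here, and 10 of the 30 genes overlap another RefSeq gene. Symbols are those of each table, and 1 symbol, SRSF4, stands for different gene IDs in the arms.

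Each arm was fitted once with limma 3.58.1 (R 4.3.3; lmFit, contrasts, eBayes with trend) on log2(value + 1), for genes with a mean of at least 10 (14141 in arm 1) or 1 TPM (10986 in arm 2), with p-values adjusted by the Benjamini-Hochberg method over all genes of a comparison and a threshold of 0.05. Residual degrees of freedom were 16 and 3; the spread of the lone SCS library after NMP was taken to be that of the other groups. Deviations from group means correlated in all 36 same-pig pairs (r 0.232 to 0.73), so a second fit had the pig as a block, fixed within a condition and random (correlation 0.4405) for HOPE against SCS; the blocked value is given where it changed the call of a member, and in arm 1 for the lists by role where it changed a count. Nuclear-total rescaling divides by the sum over all genes but 13 mitochondrially encoded ones. edgeR 4.0.16 (quasi-likelihood) and DESeq2 1.42.0 were run on the recovered reads as alternatives, beside other scalings, filters, pseudocounts and left-out libraries (all in the closing section). Fits were tested on simulated data with the same noise setting for all genes and no pig effect. Some unchanged genes were called there in arm 1, and the test does not give the error rate of the real data. The labels name no separate animals in arm 2, so p-values there measure only the spread between these libraries.

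The members and the lists by role were chosen with earlier results of these data known. Values are given in full for PPIG, the CLK genes, each member called, and the 2 SRSF and 2 HNRNP genes nearest to the threshold in the comparisons described; of the lists by role, genes called are named, at most 4 per list, and results of 1 gene of these lists are not reported here.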

Additional observations from a re-analysis of the deposited data

Results flagged for a closer look

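On the deposited scale, for 7 gene and time combinations every SCS heart moved one way from 0 h and every HOPE heart the other way. The pattern was counted for the 29 members only, so its share over all genes is unknown and the count cannot be set against a background. None of these differences between the 2 changes passed the threshold in the limma fit of the difference. At 48 h this was PPIG, with a difference of -1.4189 log2 units, HOPE minus SCS; it was higher in 3 of 3 SCS hearts and lower in 3 of 3 HOPE hearts. At 12 h it was HNRNPR (0.2269), HNRNPU (0.1991) and HNRNPUL2 (0.1549). At 24 h it was HNRNPD (0.2329), HNRNPUL2 (0.1298) and SRSF7 (0.1692). After nuclear-total rescaling the pattern held for HNRNPK, HNRNPU and HNRNPUL2 at 12 h, for 0 members at 24 h and for HNRNPK, HNRNPUL2 and PPIG at 48 h, so 3 of the 7 remained (HNRNPU and HNRNPUL2 at 12 h and PPIG at 48 h). The 6 deposited-scale differences other than that of PPIG were under 0.25 log2 units. Groups of 3, 2 or 1 libraries are too small for a test of outlying libraries.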

How the results depend on the processing

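Counts of members called were recomputed for 17 comparisons under 251 alternatives, of which 226 stayed within 1.5 times the main count. Only HOPE against SCS at 48 h and SCS against HOPE after NMP had a main count above 0. In most of the others the main fit called no gene at all, so a count of 0 was likely to stay 0. The 226 are therefore no measure of robustness. At 48 h of SCS the main count of 0 became 1 with the pig as a replicate block, 1 with nuclear-total rescaling and the block, 1 with DESeq2 (PPIG each time) and 18 with total-count scaling. In the same order, these fits called 2.18% and 5.95% of genes, 22 of 14141 genes and 39.0% of genes. For HOPE against SCS the range over fits without each pig in turn was 0 to 2 at 0 h, 0 to 2 at 12 h and 0 to 5 at 24 h, with the upper end without pig 6. The fit without pig 6 called 2.38%, 10.1% and 17.0% of genes at these times. At 48 h the main count of 1 became 18 with total-count scaling, 2 with edgeR, 3 with DESeq2, 0 in the fit of the compared groups only, 0 to 4 without each pig in turn, and 0 without the SCS 48 h library of pig 5, with or without the block (an alternative chosen after seeing the data). Total-count scaling called 57.0% of genes there, edgeR 841 of 14141 and DESeq2 1931. The fit of the compared groups only called 0 genes, so no member could be called in it. Without each pig in turn, from 5 to 3282 genes were called. PPIG there missed the threshold without pig 2 (limma adjusted p = 0.1657), 3 (0.09161), 4 (0.1816) or 5 (0.1859). Its rise in SCS in the blocked fit was 1.62 without pig 1, 1.24 without pig 3 and 0.89 without pig 5 (limma adjusted p = 0.002389, 0.01997 and 0.1142).

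After NMP, SCS against HOPE, the main count of 4 became 2 with nuclear-total rescaling, 0 with quantile normalization, 2 with no filter, 1 with the nuclear total over genes with a symbol (chosen after seeing the data) and 0 to 0 without either HOPE 24 h library, which leaves fewer samples. With equal library numbers as a replicate block it was 3; the labels do not say that the numbers pair arm 2 libraries. Values of single genes were recomputed for 25 results under 374 alternatives, of which 321 kept direction and side of the threshold, 27 lost the threshold, 19 passed it and 7 changed sign. With total-count scaling, HOPE against SCS at 48 h was 0.50 for CLK2, 0.0136 for PPIG, 0.64 for SRSF1 and 0.27 for SRSF11. After NMP, HNRNPD was 0.0311 with quantile normalization and 0.27 with the nuclear total over genes with a symbol, where HNRNPUL1 was 0.059. The block changed no other call of a member. Apart from what the scalings and left-out libraries show by construction, the cause was not tested. Depth limits SRSF12 in arm 1.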

Other observations

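2 abundant hnRNP genes have no symbol in the arm 1 table and were found by ID in the reference table, so they are not among the 29 members. HNRNPA1, an hnRNP that promotes exon skipping, had 5769, 6226 and 6306 normalised counts in the SCS hearts of pigs 1, 3 and 5 at 0 h and 7313, 8221 and 8364 at 48 h, higher in 3 of 3 hearts. In the HOPE hearts of pigs 2, 4 and 6 it had 5373, 5357 and 5667 at 0 h and 5441, 5099 and 5607 at 48 h. At 48 h it was lower in HOPE than in SCS by 0.56 ± 0.13 log2 units, without overlap (limma adjusted p = 0.02435, 6.25% of genes called; after nuclear-total rescaling 0.03256). HOPE and SCS did not overlap at 0 h either, with a difference of -0.16 ± 0.13 (limma adjusted p = 0.7148). Its change within SCS was 0.38 ± 0.13 and not past the threshold (limma adjusted p = 0.4917, with the pig as block 0.05759). The difference between the changes from 0 to 48 h, HOPE minus SCS, was -0.41 ± 0.18. It did not pass the threshold (limma adjusted p = 0.988, with the block 0.2348). HNRNPA2B1, its close relative, had 9555, 9611 and 10111 at 0 h and 12321, 11615 and 13226 at 48 h of SCS, a change of 0.34 ± 0.14 (limma adjusted p = 0.571, with the block 0.109), and differed between conditions at 48 h by -0.22 ± 0.14 (limma adjusted p = 0.310).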
